A study of Cervus nippon with 40 samples.

Results

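The let-7 family was taken as every miRNA whose listed name begins with bta-let-7, plus bta-miR-3596. The rule gave 7 names among the 305 known miRNA names used in these libraries. They were bta-let-7a-5p, bta-let-7b, bta-let-7c, bta-let-7d, bta-let-7g, bta-let-7i and bta-miR-3596. The reads of bta-miR-3596 equalled those of bta-let-7b in 40 of 40 libraries, at 3949538 reads under each name, so they were counted once as let-7b and 6 members remained. In all, the family held 4424021 reads. Of the 6 members, 5 had at least 10 reads in at least 4 libraries and were tested, and let-7g did not.

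Small RNA was sequenced from 10 organs (adrenal, antler, brain, heart, kidney, liver, lung, skeletal muscle, spleen and testes) of male Sika Deer of the Shuangyang breed. The 4 stages were 1-year-old (juvenile), 3-year-old (adolescence), 5-year-old (adult) and 10-year-old (aged) animals. Every one of the 40 libraries pooled RNA of 3 deer, and the organs of a stage shared the same 3 of the 12 deer. With 1 library for an organ and stage, differences between animals could not be measured. In the tests of organs the 4 stages stood in for replicates, and in those of stages the 10 organs did. In tissue of many cell types, fewer cells that hold a miRNA and less of it per cell cannot be told apart.

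The let-7 miRNAs are a conserved family of short RNAs that share their seed, the stretch near the 5′ end that pairs with target mRNAs. They lower the output of growth and cell cycle genes such as RAS, MYC, HMGA2 and LIN28, and LIN28 in turn blocks the maturation of let-7 precursors. Their levels are low in embryonic tissue and high in differentiated tissue, and the mature forms differ from each other at only a few bases. Reads of a member can therefore be placed under another name when mismatches are allowed, and how such reads were shared was not given in the sources used here.

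The libraries held 41866 to 7759033 miRNA reads (median 744715), and values were reads in 1000000 miRNA reads (RPM). As deposited, this total holds the shared reads under both names, let-7b and miR-3596. RPM of every member are thus lowered where let-7b is high, and steps and orders of organs in RPM depend on this. In adolescence brain the family was 43.5% of this total and 74.4% of the total without miR-3596. Ratios within a library do not depend on the total. Of 16 organ markers looked for, 13 were listed and 11 of these were highest in the labelled organ. The muscle marker miR-133a was highest in heart, the endothelial miR-126-3p was highest in kidney rather than lung, and miR-9-5p, miR-122 and miR-34c were not listed. By all tested miRNAs, 3 libraries were most like a library of another organ. The adolescence lung and the aged spleen were nearest each other (r = 0.95), and the juvenile testes were nearest the juvenile adrenal (r = 0.921). The lymphocyte marker miR-150 stood at 31.1 RPM in the aged spleen and at 256, 325 and 267 RPM in the juvenile, adolescence and adult spleens. The other spleen marker, miR-142-5p, went the opposite way, at 2850 RPM in the aged spleen and 57.6, 104 and 6.62 RPM in the earlier ones.

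One member led in all organs. Let-7b had the most reads of the family in 40 of 40 libraries, and the order let-7b, let-7c, let-7a-5p held in 40 of 40. Let-7b took 68.0% of the family's reads in aged skeletal muscle (exact 95% interval 67.1% to 68.9%, counting error only) and 95.9% in adult lung (95.8% to 96.0%), with a median of 87.6% over libraries. It was the first of all known miRNAs in 18 of 40 libraries, and its lowest place was 13, in aged skeletal muscle. The place after these changed hands. Let-7d stood above let-7i in 27 libraries and let-7i above let-7d in 13. Let-7i was the higher of the pair in all 4 antler libraries, whereas let-7d was higher at all 4 stages in heart, liver and skeletal muscle. Let-7d was the higher in 5 of 10 organs in the juvenile, 5 of 10 in adolescence, 9 of 10 in the adult and 8 of 10 in the aged stage.

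**Figure D1:**
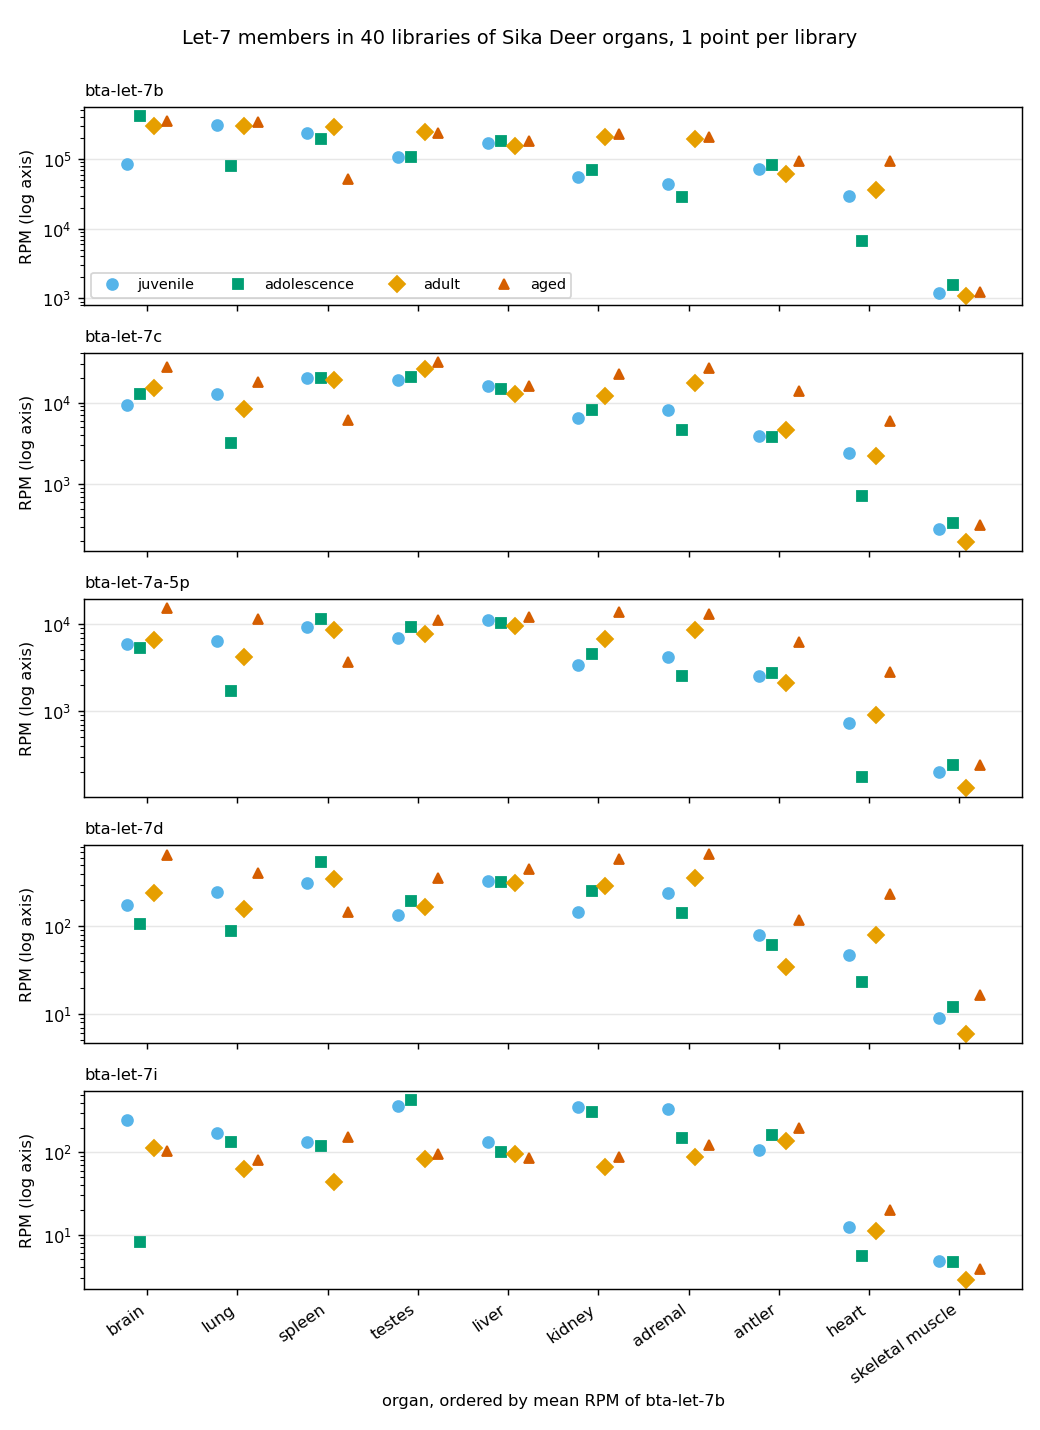
RPM of each tested let-7 member (log axis, 1 panel per member) in 10 organs, with 1 point per library and a marker for each stage. Organs run from the highest to the lowest mean of let-7b, from 287955 RPM in brain to 1260 RPM in skeletal muscle, and let-7i in brain spans 8 to 246 RPM.

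Levels of let-7b were as follows, in the order juvenile, adolescence, adult and aged. In brain let-7b stood at 85558, 416330, 296968 and 352964 RPM, so the juvenile library was low and the 3 later ones were high. In lung it stood at 313743, 78892, 301078 and 346815 RPM, with the adolescence library, one of the 3 that stood apart, below the others. In spleen it stood at 237559, 196868, 288275 and 51561 RPM, and here the aged library, also one of the 3, was low. Without these, lung spanned 301078 to 346815 RPM and spleen 196868 to 288275 RPM.

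Testes, kidney and adrenal shared a step between adolescence and the adult stage. In testes let-7b stood at 106094, 107317, 246222 and 239884 RPM. In kidney it stood at 55027, 70919, 209045 and 227420 RPM. In adrenal it stood at 43940, 28887, 197264 and 210676 RPM. In each of these organs both older libraries lay above both younger ones. The step in RPM was 2.29-fold in testes, 2.95-fold in kidney and 6.83-fold in adrenal. On TMM-scaled values it was 5.82-fold in testes, 2.93-fold in kidney and 3.5-fold in adrenal. The juvenile testes library, one of the 3 that stood apart, had nearly the same value as the adolescence one.

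The remaining organs differed in how far the stages spread. Liver was the most even in RPM relative to its mean, at 168162, 185325, 156632 and 180007 RPM. On TMM-scaled values it stood at 86972, 108358, 49029 and 84790, with the adult library low. Antler, the organ of yearly regrowth, also stayed within a narrow range, at 71775, 81353, 61455 and 93409 RPM. Heart had a low adolescence library and a high aged one, at 29601, 6724, 35714 and 94625 RPM. Skeletal muscle was the lowest organ in RPM, at 1178, 1571, 1066 and 1224 RPM, and every one of its libraries lay below every library of the other organs. On TMM-scaled values this separation was lost. Skeletal muscle then stood at 21143, 47390, 36673 and 16414, beside 18235 in adolescence adrenal and 22527 in adolescence testes. By mean over stages (± SD, n = 4) the order ran brain 287955 ± 143471, lung 260132 ± 122356, spleen 193566 ± 101787, testes 174879 ± 78765, liver 172531 ± 12799, kidney 140603 ± 90186, adrenal 120192 ± 97088, antler 76998 ± 13628, heart 41666 ± 37446 and skeletal muscle 1260 ± 218 RPM. Ranges of neighbours in this order overlapped, except those of heart and skeletal muscle.

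The share of all miRNA reads held by the family, with miR-3596 left out of both, followed let-7b. It ran from 0.14% in adult skeletal muscle to 74.4% in adolescence brain, with a median of 15.1%. In brain the share was 11.1%, 74.4%, 45.4% and 61.3% from juvenile to aged, so at the last 3 stages the family made up a large part of the miRNA reads. In adrenal it was 5.95%, 3.74%, 27.9% and 31.8%, and in kidney 6.92%, 9.06%, 28.9% and 34.2%. In lung it was 48.6%, 9.12%, 44.9% and 57.7%, and in spleen 35%, 28.5%, 44.5% and 6.51%. Skeletal muscle gave 0.168%, 0.216%, 0.14% and 0.18%. A share depends on the other miRNAs of the library. The muscle miRNA miR-1 took 92.1%, 91.9%, 92.9% and 91.2% of the reads in skeletal muscle and 59.5%, 82.0%, 32.8% and 16.7% in heart. With miR-1 left out of the total, the family held 2.11%, 2.68%, 1.99% and 2.05% in skeletal muscle and 8.36%, 4.28%, 6.01% and 13.8% in heart, so skeletal muscle was still the lowest organ.

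**Figure D2:**
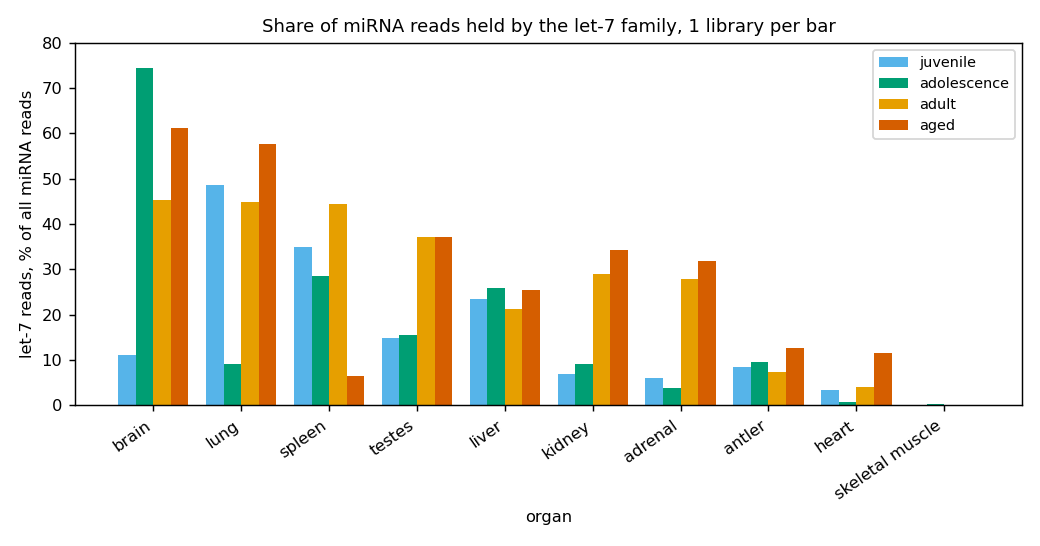
Percent of all miRNA reads held by the let-7 family, with the reads of miR-3596 counted once, in 10 organs at 4 stages (1 bar per library, no error bars because each bar is 1 library). Brain, lung and spleen hold the tallest bars, skeletal muscle stays under 0.22%, and the adolescence lung (9.12%) and aged spleen (6.51%) fall below the other bars of their organ.

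Let-7c was the second member, with 302262 reads in all and 6.83% of the family's reads. Its highest organ was not that of let-7b. Testes led with 18898, 20675, 25696 and 31266 RPM (mean 24134 ± 5559), and their range overlapped that of spleen, the next organ. Without the juvenile testes and the aged spleen, both among the 3 libraries that stood apart, testes held 20675 to 31266 RPM and spleen 19074 to 20213 RPM, and the ranges no longer overlapped. This gap, and the place of spleen as the next organ, depend on the total holding miR-3596. Let-7c stood at 9240, 12675, 14866 and 27313 RPM in brain and at 12716, 3225, 8335 and 17809 RPM in lung. Skeletal muscle was again the lowest in RPM, at 287, 332, 195 and 319 RPM. On TMM-scaled values it was not, at 5145, 10032, 6713 and 4279 beside 5576, 4709, 2001 and 5919 in heart. The aged antler held 13964 RPM against 3856, 3838 and 4606 RPM at the earlier stages.

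Let-7a-5p was the third member, with 162663 reads and 3.68% of the family. Its mean was highest in liver, at 11210, 10348, 9451 and 12277 RPM (mean 10822 ± 1207), with testes next at 8786 ± 1861 RPM and an overlapping range. Brain followed at 8339 ± 4729 RPM, and the order of testes and brain depends on the total holding miR-3596. Without the 3 libraries spleen came after liver, at 9763 ± 1441 RPM (n = 3), again with an overlapping range. Heart was low for this member, at 735, 173, 913 and 2822 RPM. In brain let-7a-5p stood at 5879, 5412, 6674 and 15388 RPM, and in antler at 2510, 2760, 2123 and 6309 RPM. In both organs the aged library was the highest in RPM and the other 3 lay close together. On TMM-scaled values let-7a-5p in brain stood at 6752, 8402, 3531 and 14880, with the adult library low.

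The ratio of let-7a-5p to let-7c does not depend on scaling or on let-7b, and it varied mainly between organs. Organ accounted for 73.0% of the variation of its log2 values and stage for 3.21%. Liver gave 0.711, 0.703, 0.739 and 0.769 reads of let-7a-5p per read of let-7c, and skeletal muscle 0.687, 0.714, 0.662 and 0.743. Testes gave 0.373, 0.447, 0.298 and 0.358, and heart 0.302, 0.244, 0.41 and 0.47. The ranges of liver and skeletal muscle overlapped each other, as did those of testes and heart, and the former pair lay wholly above the latter. The other 6 organs had means between 0.511 (adrenal) and 0.572 (kidney). The 2 names are close in sequence, so the ratio also holds any reads placed under the wrong name. The pattern was chosen after the values were seen and was not tested.

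**Figure D3:**
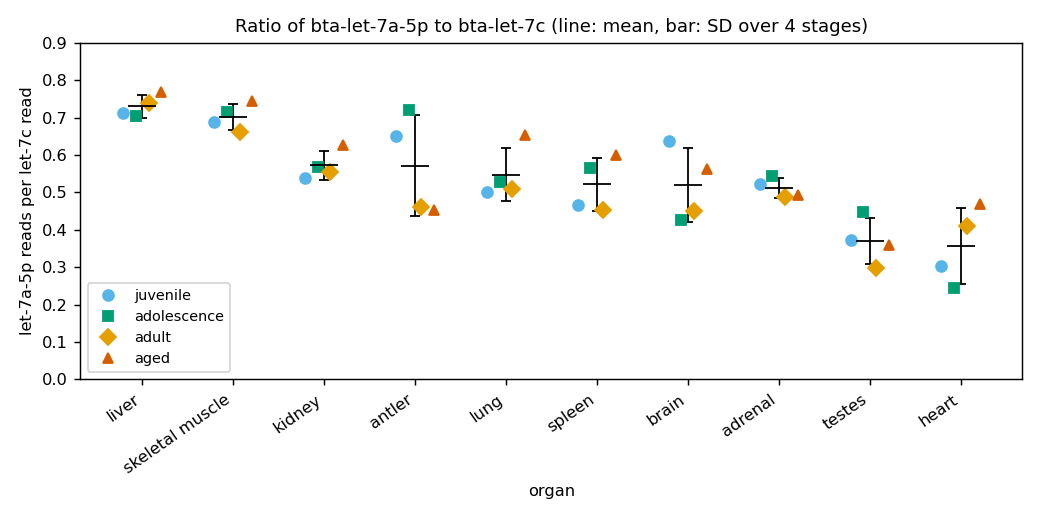
Reads of let-7a-5p per read of let-7c in 10 organs (1 point per library, horizontal line the mean and vertical bar the SD over 4 stages). Liver (0.703 to 0.769) and skeletal muscle (0.662 to 0.743) lie above testes (0.298 to 0.447) and heart (0.244 to 0.47) at every stage.

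Let-7d and let-7i were scarce beside the first 3 members. Let-7d had 6618 reads and let-7i 2938, which were 0.15% and 0.0664% of the family. Liver and adrenal had the highest means of let-7d, 354 ± 66 and 352 ± 229 RPM. Spleen (338 ± 166 RPM), kidney (321 ± 190 RPM) and brain (297 ± 249 RPM) lay close, and this order depends on the total holding miR-3596. Without the aged spleen, spleen had the highest mean, at 402 ± 128 RPM (n = 3), within the spread of the others. In antler let-7d stood at 79, 61, 34 and 118 RPM, from 17, 13, 23 and 85 reads. Testes held 73, 13, 16 and 15 reads of let-7d, so counting error is large there. Let-7i had its highest mean in testes, at 364, 431, 82 and 96 RPM, followed by kidney at 355, 311, 67 and 88 RPM. Without the juvenile testes the means of testes (203 ± 198, n = 3) and kidney (205 ± 149) were nearly equal. Heart held only 12, 5, 11 and 20 RPM of let-7i and skeletal muscle 5, 5, 3 and 4 RPM. The adolescence brain had 3 reads of let-7i (8 RPM) in a library with 153388 reads of let-7b.

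Let-7g was nearly undetected. It was listed with 1 read in juvenile kidney (3.04 RPM) and 1 read in adolescence spleen (1.12 RPM), and in no other library. A count of 0 allows up to 3 reads, which is 0.387 RPM in the deepest library, juvenile skeletal muscle, and 71.7 RPM in the shallowest, aged testes.

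Differences of level between organs were tested over all 124 tested miRNAs in limma, on TMM-scaled values as log2(RPM + 1). A member was called at a Benjamini-Hochberg adjusted p below 0.01 and, in a contrast, a log2 difference above 1 in size. Across the 10 organs, 3 of 5 members were called: let-7b (adjusted p = 0.00049), let-7d (0.0039) and let-7a-5p (0.00465). Let-7i (0.0268) and let-7c (0.0775) were not. Of all tested miRNAs 75.8% were called, so the share of members called was below the background. Without the 3 libraries that stood apart, 4 of 5 were called, let-7c now included (adjusted p = 0.00213). The share of all tested miRNAs called in that fit is not given here.

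Each organ was then set against the mean of the other 9. Let-7b was higher in brain by 1.85 on the log2 scale (SE 0.48, adjusted p = 0.0013) and in lung by 1.75 (SE 0.48, 0.00685), above the mean of the other organs at 4 of 4 stages in both. It was lower in skeletal muscle, with a log2 difference of -1.62 (SE 0.48, 0.00545), below that mean at all 4 stages. Among the tested miRNAs 40.3% were called in brain, 12.9% in lung and 37.1% in skeletal muscle, and let-7b was the 1 of 5 members called in each. In brain let-7a-5p and let-7c gave 1.13 and 1.16 in limma, just short of the limit (adjusted p = 0.0105 and 0.016). Both were called there by edgeR (1.10, 0.00462 and 1.13, 0.00717) and by DESeq2 (1.02, 0.00302 and 1.07, 0.00343). With the 3 libraries left out, let-7b gave 1.98 in lung (0.000797) and 1.39 in brain (0.00214).

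Heart and antler set other members apart. In heart let-7a-5p (log2 difference -1.48, SE 0.37, adjusted p = 0.0014) and let-7i (-1.82, SE 0.46, 0.00178) were lower than in the other organs, while let-7b gave -0.53 (0.432). In antler let-7d was lower (-1.35, SE 0.36, 0.00299), and let-7i gave 1.10 (0.0468) in limma but was called higher there by edgeR (1.27, 0.00801) and DESeq2 (1.29, 0.000893). Each called member lay on the same side of the other organs' mean at 4 of 4 stages. Of all tested miRNAs 26.6% were called in heart and 37.9% in antler, against 2 of 5 and 1 of 5 members.

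In the remaining 5 organs 0 of 5 members were called by limma on TMM-scaled values. At an unadjusted p under 0.05 there was 1 in testes (let-7d, -1.12, adjusted p = 0.0172) and 0 in adrenal, kidney, liver and spleen. DESeq2 called let-7d in testes (-1.03, 0.00908) and no member in the other 4 organs. The background was 13.7% in adrenal, 16.1% in kidney, 21% in liver, 4.84% in spleen and 17.7% in testes. Without the 3 libraries let-7d was called lower in testes (-1.33, 0.000423) and higher in spleen (1.14, 0.00384).

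Scaling matters in several organs, among them skeletal muscle and heart. With total miRNA reads in place of TMM, the median of all tested miRNAs moved to -3.61 in skeletal muscle and -1.37 in heart, from -0.01 and -0.47. On that scale all 5 members were called lower in both organs, with let-7b at -6.60 and let-7a-5p at -4.70 in skeletal muscle. Let-7a-5p, let-7d and let-7i were at 0.28, 0.73 and 0.38 in skeletal muscle after TMM, so their sign there turned with the scaling. In liver the median moved from -0.11 to 1.07 on total reads. There limma called let-7a-5p (1.73, adjusted p = 0.00053), let-7d (1.41, 0.00335) and let-7c (1.19, 0.00867) higher. Let-7b went from -0.55 to 0.68 in kidney and from -0.95 to 0.17 in adrenal, and was called on neither scale. The direction of the 6 calls above did not turn under any of the 3 other scalings. Leaving out 1 stage ended some of them. Let-7b in brain fell short without any one stage (adjusted p up to 0.0455, log2 difference 1.19, without adolescence), and in lung without the juvenile (1.38, 0.151), adult (1.58, 0.0494) or aged stage (1.56, 0.0464). Let-7d in antler fell short without any one stage (up to 0.0232). In heart let-7a-5p and let-7i fell short without the juvenile (0.125 and 0.0499) or the adult stage (0.0524 and 0.0477). Let-7b in skeletal muscle stayed called without any one stage and fell short with edgeR (-1.63, 0.0118). Let-7b in lung also fell short after scaling to total reads without miR-1 (adjusted p = 0.0404).

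**Figure D4:**
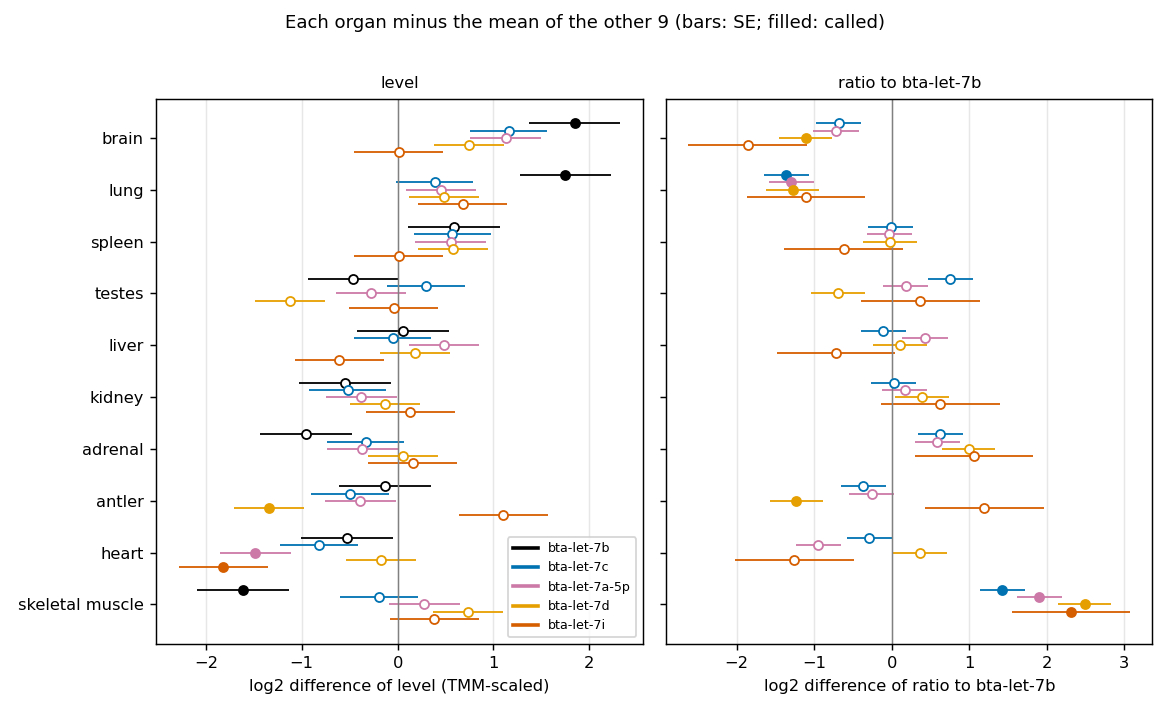
Log2 difference between each organ and the mean of the other 9 for the let-7 members, as TMM-scaled level (left) and as ratio to let-7b (right), with bars of 1 SE and filled points for called members. Let-7b is filled in brain (1.85), lung (1.75) and skeletal muscle (-1.62) on the left, and all 4 other members are filled in skeletal muscle on the right.

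A ratio to let-7b within a library cancels the scaling and asks whether members part from the leader. In limma on this ratio, 3 of 4 members were called between organs: let-7d (adjusted p = 8.14e-07), let-7a-5p (3.76e-06) and let-7c (4.5e-05). Let-7i was not (0.0203). The background was 91.8%, so most miRNAs of these organs part from let-7b. Organ accounted for 72.5% to 72.9% of the variation of the log2 ratio of let-7a-5p, let-7c and let-7d, and for 35.9% of that of let-7i.

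Skeletal muscle and lung lay at opposite ends. In skeletal muscle the log2 ratio of let-7c to let-7b was -2.04, -2.24, -2.45 and -1.94 from juvenile to aged, and in lung -4.62, -4.61, -5.17 and -4.28. Every muscle library lay above every lung library. Against the other 9 organs, all 4 members were higher relative to let-7b in skeletal muscle: let-7d by 2.49 (SE 0.35, adjusted p = 2.1e-07), let-7i by 2.31 (SE 0.76, 0.00663), let-7a-5p by 1.90 (SE 0.29, 1.07e-06) and let-7c by 1.43 (SE 0.29, 6.67e-05). In that organ 74.6% of all tested miRNAs were called, each of them higher. The median log2 difference of all tested miRNAs was 3.01, so the members rose less against let-7b than the median miRNA. In lung 3 of 4 were lower relative to let-7b, namely let-7c (-1.36, SE 0.29, 0.000209), let-7a-5p (-1.30, SE 0.29, 0.000385) and let-7d (-1.28, SE 0.35, 0.00239), beside a background of 48.4%. The median of all tested miRNAs in lung was -1.95, further below let-7b than these members. Without the 3 libraries that stood apart the 3 members were at -1.38, -1.28 and -1.39 and were still called. The call on let-7i in skeletal muscle, where it had 18 to 37 reads a library, was lost with edgeR (1.66, 0.0252) and with DESeq2 (1.66, 0.025), and without the juvenile (0.0131), adult (0.055) or aged stage (0.0329). The lung calls of let-7a-5p and let-7c were lost without the adult stage (0.0127 and 0.0107), and that of let-7d without the juvenile, adult or aged stage (up to 0.0361).

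Let-7d was the 1 of 4 members called in antler (-1.23, SE 0.35, adjusted p = 0.00466) and in brain (-1.11, SE 0.35, 0.0059), lower relative to let-7b in both. The background was 28.7% in antler and 57.4% in brain, with a median of all tested miRNAs of -0.27 in antler and -2.01 in brain. The brain call rested on the adolescence library, where the log2 ratio was -11.94 beside -8.92, -10.26 and -9.06 at the other stages. Without the adolescence stage it was -0.39 (0.307), and without the adult or aged stage it was -1.24 (0.0224) and -1.34 (0.0136). In antler the call was lost without the juvenile, adult or aged stage (0.0186, 0.0484 and 0.0291) and with edgeR (0.011), and in brain with edgeR (0.0794) and DESeq2 (0.0238). In the remaining organs 0 of 4 were called by limma, with 2 at an unadjusted p under 0.05 in adrenal, 1 each in heart and testes and 0 in kidney, liver and spleen. DESeq2 called let-7d in adrenal (adjusted p = 0.00588), where limma gave 0.99 (0.0295), and edgeR called none. The background there was 16.4% in adrenal, 13.9% in heart, 9.02% in kidney, 24.6% in liver, 4.1% in spleen and 14.8% in testes.

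Over the stages the members were first described by 2-fold steps between neighbouring stages of an organ, in RPM with miR-3596 in the total. From juvenile to adolescence 12 of 50 member values moved 2-fold or more, 1 up and 11 down, beside 41.8% of all known miRNA values. From adolescence to adult 21 of 50 moved, 16 up and 5 down, beside 49.6%. From adult to aged 21 of 49 moved, 17 up and 4 down, beside 32.8%. Let-7b rose 2-fold or more from adolescence to adult in 5 organs (adrenal, heart, kidney, lung and testes) and let-7i fell in 4 (kidney, lung, spleen and testes). The lung step starts from a library that stood apart. The heart step turned with the scaling. MiR-1 took 82.0% of the adolescence heart reads, and its part in this was not tested. The heart step was 5.31-fold up in RPM and 0.72-fold on TMM-scaled values, and the family share without miR-1 went from 4.28% to 6.01%. From adult to aged let-7d went up in 7 organs, let-7a-5p in 5, let-7c in 3 and let-7b in 1. Liver held no 2-fold step in RPM for any of the 5 members. On TMM-scaled values let-7b, let-7c and let-7a-5p fell there from adolescence to adult, to 0.452, 0.465 and 0.489 of their value. Over the organs, let-7b on that scale rose 2-fold or more from adolescence to adult in 5 and fell in 2. It fell in brain (0.243) and liver and rose in spleen (2.01), while let-7i fell in 6 organs. With 1 library on each side, a step compares those libraries and not the stages. Leaving out the 3 libraries that stood apart took the total from 54 of 149 to 41 of 129 steps.

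The clearest parting was that of let-7i from let-7b in kidney, adrenal and testes. In kidney the log2 ratio of let-7i to let-7b was -7.28, -7.84, -11.61 and -11.34 from juvenile to aged. In adrenal it was -7.03, -7.59, -11.15 and -10.73, and in testes -8.19, -7.96, -11.54 and -11.29. In RPM let-7b was higher and let-7i lower in both older libraries of these organs than in both younger ones, so the gap widened from both sides. In adrenal this order of let-7i in RPM depends on the total holding miR-3596. The juvenile testes library was one of the 3 that stood apart, and the adolescence one alone also lay above both older libraries. The directions of let-7b and let-7i in these 3 organs held on TMM-scaled values. The older testes libraries had 8 and 4 reads of let-7i, and the older kidney libraries 22 and 75. Over the 10 organs let-7i lay lower in both older libraries in 6 (adrenal, kidney, liver, lung, skeletal muscle and testes) and let-7b lay higher in both in 4 (adrenal, heart, kidney and testes). These counts are of RPM, and the adrenal case of let-7i depends on the total holding miR-3596. On TMM-scaled values let-7b overlapped in heart, at 67909, 44586, 32112 and 93286, and let-7i overlapped in skeletal muscle. On that scale let-7b also lay higher in antler and lung and lower in liver, so 5 organs were higher and 1 lower. Let-7i also lay lower in heart and higher in antler, so 6 organs were lower and 1 higher. Over all known miRNAs 24.1% of miRNA and organ pairs lay lower in this way and 25.3% higher. Relative to let-7b, let-7i lay lower in both older libraries in 5 organs and higher in 1, antler, where it stood at -9.39, -8.96, -8.78 and -8.88. The background of the ratio was 37.8% lower and 9.36% higher.

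Brain, spleen, liver and skeletal muscle overlapped between the older and younger libraries. The log2 ratio of let-7i to let-7b in brain was -8.44, -15.64, -11.36 and -11.71, with the low point at adolescence on 3 reads. In spleen it was -10.79, -10.68, -12.71 and -8.39, with the aged library, one of the 3 that stood apart, the highest. In liver it stayed between -11.06 and -10.31, and in skeletal muscle between -8.59 and -7.95.

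**Figure D5:**
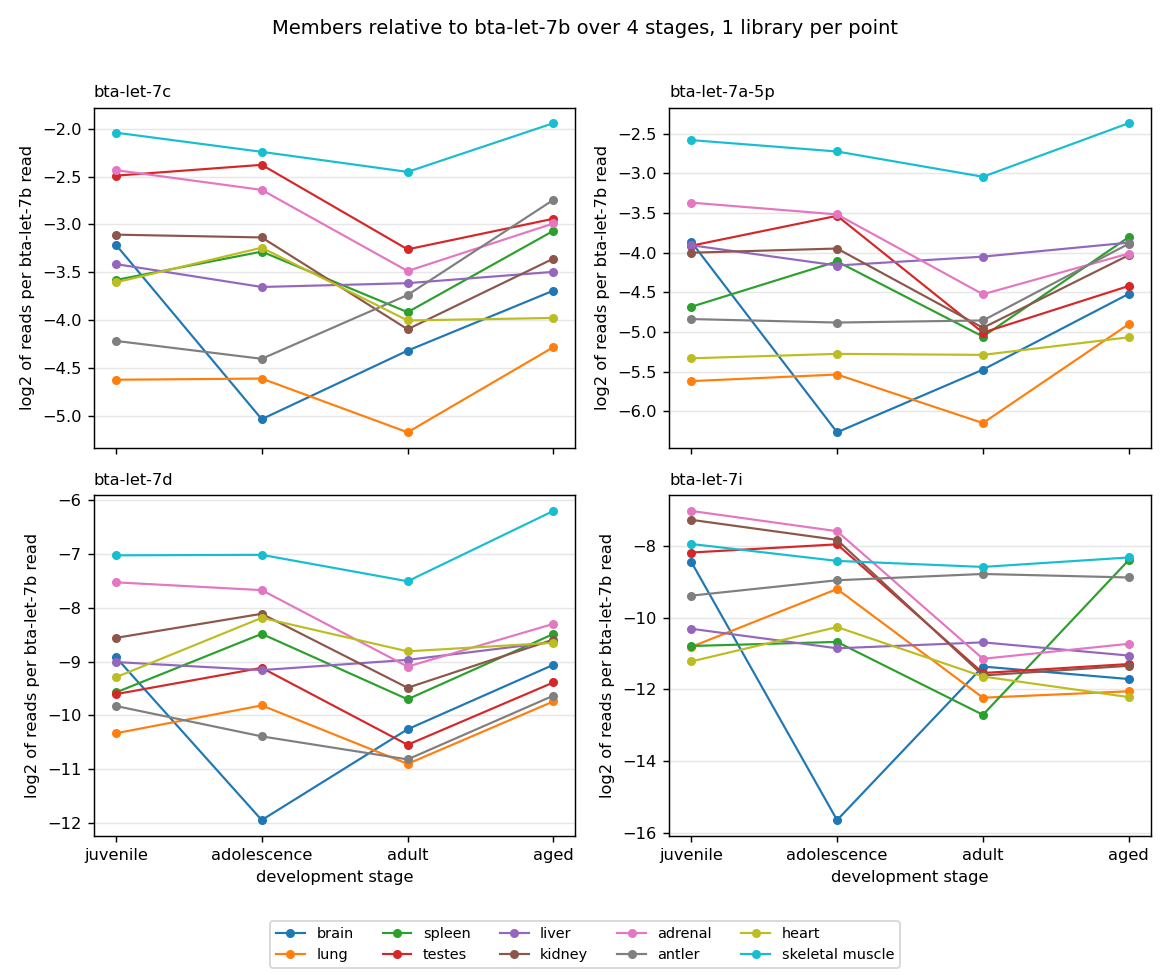
Log2 of the reads of each member per let-7b read (1 panel per member) at 4 stages, with 1 line per organ and 1 library per point. Let-7i falls from -7.28 to -11.34 in kidney between juvenile and aged, and let-7c, let-7a-5p and let-7d lie higher at the aged than at the adult stage in each of the 10 organs.

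The stage tests over all organs gave calls that differed between tools. In limma on levels the F-test over stages called 0 of 5 members (3 at an unadjusted p under 0.05), beside 4.84% of all tested miRNAs. The smallest adjusted p were 0.0696 for let-7d, 0.0789 for let-7i and 0.125 for let-7a-5p. DESeq2 called 2, let-7d (6.65e-05) and let-7a-5p (0.00265), beside 25 of all 124 tested miRNAs. EdgeR called 0 members, beside 10 of 124. Without the 3 libraries limma called the same 2 members (let-7d 0.000374, let-7a-5p 0.00481), and without spleen as a whole it did so as well (0.000381 and 0.00385). The share of all tested miRNAs called in these fits with libraries left out is not given here.

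In single contrasts of stages limma also called 0 of 5 members each. The counts at an unadjusted p under 0.05 were 0 for adolescence minus juvenile, 0 for adult minus adolescence, 2 for aged minus adult, 3 for aged minus juvenile and 1 for adult and aged minus juvenile and adolescence. The background of these contrasts was 0.806%, 0%, 0%, 5.65% and 8.06%. Let-7d gave 0.87 for aged minus juvenile (SE 0.31, adjusted p = 0.0446, higher in 9 of 10 organs), and was called without the 3 libraries (1.14, 0.000246) or without spleen (1.08, 0.00073). Let-7d was also the 1 member that DESeq2 called in this contrast (1.13, 9.66e-05), and edgeR called none. For aged minus adult let-7d gave 0.94 (SE 0.31, 0.54, higher in 9 of 10 organs), and was called by limma without spleen (1.06, 0.00366) or without the 3 libraries (1.05, 0.0024). Let-7i gave -0.82 for the older minus the younger stages (SE 0.28, 0.0281, lower in 8 of 10 organs). Let-7b gave 0.54 for the same contrast (SE 0.29, 0.168, higher in 5 of 10). The median of all tested miRNAs in that contrast was -0.15 after TMM and 0.10 after scaling to total reads.

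On the ratio to let-7b, limma called 0 of 4 members in the F-test over stages (3 at an unadjusted p under 0.05) and edgeR and DESeq2 called 0, beside a background of 3.28%. In the 5 contrasts, in the same order, it called 0 of 4 each, with 0, 1, 3, 1 and 1 at an unadjusted p under 0.05 and a background of 0%, 0%, 0%, 5.74% and 15.6%. Let-7i gave -1.37 for the older minus the younger stages (SE 0.46, adjusted p = 0.0227, lower in 7 of 10 organs). DESeq2 called it (-1.54, 0.000658) and edgeR did not, and limma called it without brain (-1.57, 0.00336) or without spleen (-1.55, 0.00813). Without the 3 libraries limma called 0 of 4 members in the F-test and in these contrasts, with let-7i at -1.44 (0.0135).

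Let-7c, let-7a-5p and let-7d moved together against let-7b between the adult and aged stages. All 3 were higher relative to let-7b in the aged library than in the adult one in 10 of 10 organs, and let-7i was in 6 of 10. Of all miRNAs tested in this way 2.46% did so in 10 organs, which were these 3 members alone. The count of organs was not a planned test. The 3 members share let-7b as denominator, their levels were alike (r from 0.68 to 0.91) and they may share misplaced reads. They are therefore not 3 separate results. The log2 differences were 0.92 for let-7d (SE 0.29), 0.75 for let-7a-5p (SE 0.25) and 0.56 for let-7c (SE 0.25), with adjusted p of 0.286, 0.286 and 0.92, so none was called. In brain the log2 ratio of let-7a-5p to let-7b went from -5.48 to -4.52, in kidney from -4.95 to -4.03 and in heart from -5.29 to -5.07. The aged spleen is one of the 3 libraries that stood apart. Without spleen the same 3 members, and no other tested miRNA, were higher in 9 of 9 organs. With the 3 libraries left out the differences were 0.89, 0.71 and 0.53, and none was called (adjusted p = 0.333, 0.333 and 0.746). The 10 organs of a stage share 3 deer and are not 10 independent comparisons. The aged library was the deeper in 6 of 10 organs, and the labels name no sequencing run. The part of depth or run in this shift was not tested.

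Likeness between members was described over 40 libraries by Pearson's r of TMM-scaled log2 levels, which share library depth and scaling. Let-7c and let-7a-5p were the most alike (r = 0.91), followed by let-7b and let-7c (0.78), let-7a-5p and let-7d (0.75), let-7b and let-7a-5p (0.69) and let-7c and let-7d (0.68). Let-7b and let-7d gave 0.47. Let-7i stood aside, at -0.19 with let-7b, -0.00022 with let-7c, 0.12 with let-7a-5p and -0.093 with let-7d. Outside the family the 5 miRNAs most like let-7b among 118 were miR-3432a (0.75), miR-197 (0.71), miR-1296 (0.68), miR-423-3p (0.60) and miR-2366 (0.56). The same 5 were the most like the family sum.

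Of 6 miRNAs that share the seed of let-7 or lie beside let-7 genes in mammals, miR-98 and miR-125a were listed. MiR-98, which carries the let-7 seed under another name, had 1956 reads in 39 libraries. Its r was 0.66 with let-7i, at place 4 among 118, and -0.29 with let-7b. In kidney miR-98 stood at 167, 256, 45.5 and 92.2 RPM and in adrenal at 168, 103, 53.5 and 66.3 RPM, lower in both older libraries, as let-7i was. In testes it was also lower, at 194, 253, 72.2 and 0 RPM, from 104, 17, 7 and 0 reads, where the 0 allows up to 71.7 RPM. In the other organs where let-7i was lower, miR-98 was higher in liver (43.4, 48.5, 48.7 and 75.8 RPM) and overlapped in lung and skeletal muscle. In brain miR-98 stood at 272, 10.9, 113 and 134 RPM, from 316, 4, 90 and 124 reads, again lowest at adolescence. MiR-125a, known from clusters with let-7 genes, had 821 reads in 39 libraries and an r of 0.35 with let-7b. In antler miR-125a was lower than in the other organs (log2 difference -1.87, SE 0.54, limma adjusted p = 0.00461, background 37.9%), on only 1, 0, 4 and 11 reads and with 1 of 4 stages above the mean of the others. In the limma test of stages neither was called (adjusted p = 0.567 for miR-98 and 0.366 for miR-125a).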

How the data were processed

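Per library, the deposited tables list the RPM of each miRNA with at least 1 read. The authors trimmed reads, set other RNA classes aside, matched the rest to miRBase 22.0 and miRDeep 2.0.5 predictions and divided by all miRNA reads. The headers name the unit tpm, though nothing was divided by length. Whole reads were recovered from the RPM steps, within 0.01 of a whole read for 7982 of 7982 values. Antler reads named miR-148c were moved to miR-2957, and 32 names seen in antler alone were left out.

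The members and lists were chosen with earlier results of these data known. Tested were the 124 miRNAs reaching 10 reads in 4 or more libraries. Levels, log2(RPM + 1) after TMM scaling (edgeR 4.0.16), were fitted with limma 3.58.1 (R 4.3.3) on organ and stage, and ratios to let-7b without scaling. The fits were tested on simulated data. The p-values measure only the spread over stages or organs. In the organ F-test limma called 94 miRNAs, edgeR on the reads 95 and DESeq2 1.42.0 108. Alternatives were scaling, pseudocount, read minimum, second names, covariates and left-out libraries. Folds were ratios of RPM with at least 10 reads on 1 side. Named were the members, 6 neighbours, miR-1, organ markers and the 5 miRNAs most like let-7b and the family sum. Comparisons between single libraries by the study were not used here. Intervals and limits cover counting error only.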

Additional observations from a re-analysis of the deposited data

Results flagged for a closer look

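In groups of 4 stages of 1 organ, a value was marked when its gap to the nearest of the other 3, divided by the whole range, passed Dixon's 95% limit. Of 100 such groups 8 were marked, and chance alone marks about 1 in 20. In antler the aged library was high for let-7c (14000 RPM), for let-7a-5p (6310 RPM) and for the log2 ratio of let-7a-5p to let-7b (-3.89). The aged stage was also high for let-7a-5p in brain (15400 RPM) and for let-7d in liver (452 RPM). The low values were let-7b in the adolescence lung (78900 RPM) and let-7c in the aged spleen (6160 RPM), both among the 3 libraries that stood apart, and the log2 ratio of let-7a-5p to let-7b in the adult kidney (-4.95). The marks of let-7a-5p in brain and of let-7b in lung depend on the total holding miR-3596.

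Organs also went opposite ways between younger and older libraries. Let-7c lay higher in both older libraries in 5 organs (adrenal, antler, brain, kidney and testes) and lower in both in spleen. Let-7a-5p lay higher in 4 (adrenal, brain, heart and kidney) and lower in spleen. In RPM the places of let-7c in brain and spleen, and of let-7a-5p in spleen, depend on the total holding miR-3596. On TMM-scaled values the pairs overlapped in spleen and brain for both members and in heart for let-7a-5p. On that scale liver lay lower in both older libraries for both members, and antler and testes lay higher for let-7a-5p. In liver let-7c stood at 8158, 8608, 4004 and 7516, and let-7a-5p at 5798, 6051, 2958 and 5783. The spleen value includes the aged library that stood apart, and the difference between organs was not tested.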

How the results depend on the processing

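Of members tested between organs, 3 were called in the reported fit, 5 after scaling to total reads with or without miR-1 or with DESeq2, and 1 with no minimum of reads or with no stage term. The 6 calls of 1 organ against the others became 19 (total reads), 10 (total reads without miR-1), 10 (DESeq2) and 2 (no minimum of reads). Leaving out 1 stage gave 0 to 2 members between organs, 1 to 4 calls of 1 organ against the others and 3 to 8 of the 9 calls against let-7b. Between stages, 0 calls became 2 with DESeq2 and 2 without the 3 libraries that stood apart, and 0 to 2 with 1 organ left out. In stage contrasts, 0 calls became 1 with DESeq2 size factors, with second names left out and with DESeq2, 2 without the 3 libraries, and 0 to 2 with 1 organ left out. Against let-7b between stages, 0 calls became 1 with DESeq2, and 0 to 1 with 1 organ left out. The share of all tested miRNAs called is not given beside these counts, so they are not read as results about the members. The cause of these changes was not tested. The 15 single calls kept their sign in all alternatives run, and in these they stayed called 149 times and missed the limit 49 times. Let-7b led in every library kept under each alternative run. For the leader, the family share and the 2-fold steps, leaving out single stages or organs was chosen after seeing the data, as were TMM-scaled values for the older and younger libraries and leaving spleen out of the adult to aged shift. Depth limits let-7d and let-7i in testes, and let-7g in all organs.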
